A study of Mus musculus with 5 samples.

Results

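Enzymes that make nonessential amino acids and glutamine, or pass amino groups between amino acids, were followed across 5 arrays of mouse CD4 T cells. The genes listed were Asns, Gpt2, Got1, Got2, Pycr1, Aldh18a1, Glul, Bcat1 and Bcat2. Every probe set was taken whose only gene symbol in the platform annotation was a listed gene. This gave 22 probe sets for 8 of the 9 listed genes, out of 18193 genes in all, and Pycr1 is not analysed here.

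The cells were splenic CD4 T cells of BALB/c mice, and each of 5 groups was measured on 1 array. The groups were naive cells, control effector Th1 cells, effector Th1 cells labelled Rap, effector Th1 cells labelled TOFA, and memory Th1 cells. The labels give a Th1 culture of 5 days, with IL-2 at 15 ng/ml and IL-12 at 10 ng/ml, which they attach to all 5 samples, although only the effector samples are described as cultured. TOFA inhibits acetyl-CoA carboxylase, the enzyme that starts fatty acid synthesis, and the labels do not expand Rap. No group had a replicate, so there is no test between groups, and precision is limited by having single arrays. The words higher and lower refer to those arrays alone.

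Signals are linear intensities after quantile normalization, which gives the 5 arrays the same distribution. Signals under 43.4, the 40th percentile, were raised to that floor before a difference was taken. A gene counted as called once it differed by at least 2-fold, and its brightest probe set stood for it. Median deposited signals were 63.1 to 99.5, with the memory array highest. The only measure of error was how far probe sets of a gene differed from each other, an SD that was, on the log2 scale, 0.33 for TOFA against control, 0.34 for Rap against control and 0.30 for TOFA against Rap. It was 0.57 for control effector against naive, 0.43 for memory against naive and 0.55 for memory against control effector, and it leaves out any difference between cultures.

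The labelled cell type was checked against marker genes before the enzymes were examined. All 8 measured T cell markers were above the floor in every array, with summed signals of 46342 to 73287, and Cd4 itself lay between 483 and 897. CD8 T and NK cell markers summed to 1096 in naive, 2672 in control effector, 4037 in Rap, 2359 in TOFA and 2032 in memory cells. Cd8b1 read 540 in naive, 702 in memory and 252 to 316 in the effector arrays. In the effector arrays Klrk1 read 1372 to 1686 and Eomes 616 to 1948, while Ncr1 was under the floor. The memory array stood apart, because all 10 macrophage and monocyte markers were above the floor in it, with a summed signal of 96935 against 366 to 1361 in the other 4 arrays. C1qa, a complement gene of tissue macrophages, had a signal of 16550 in the memory array and of at most 7.72 elsewhere. B cell markers summed to 32520 in naive and 49552 in memory cells, and to between 1859 and 2630 in the effector arrays. Neutrophil markers summed to 5520 in naive and 12482 in memory cells, and to at most 153 in the effector arrays. In such bulk samples, fewer cells of a type and less RNA per cell cannot be told apart.

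Cells can build these amino acids from glucose and glutamine when the supply from outside does not meet their need. Glutamate stands at the centre of this network, since transaminases take its amino group to make alanine and aspartate, and its carbon skeleton gives proline. The transcription factor ATF4, which is made when amino acids run short or translation is stressed, is known to act on a C/EBP-ATF response element in genes such as Asns. T cells that divide after activation are known to take up more amino acids and to raise many of these enzymes.

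The promoters below are shown because Asns and Got1 are the measured members whose windows hold letters of that element. Gpt2, whose window does not hold them, is shown beside them and was picked with its values known. Each line gives the 120 bases before the RefSeq start site in build GRCm38.p6, all 9 listed genes being matched by symbol, and capitals mark the element TGATGNAA, searched on both strands.
Asns, chr6:7693210-7693329, minus strand: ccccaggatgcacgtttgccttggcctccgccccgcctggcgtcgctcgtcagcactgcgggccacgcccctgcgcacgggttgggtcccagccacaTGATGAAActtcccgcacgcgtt
Got1, chr19:43524606-43524725, minus strand: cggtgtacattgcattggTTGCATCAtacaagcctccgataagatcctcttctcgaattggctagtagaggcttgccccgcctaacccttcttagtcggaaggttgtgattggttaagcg
Gpt2, chr8:85492456-85492575, plus strand: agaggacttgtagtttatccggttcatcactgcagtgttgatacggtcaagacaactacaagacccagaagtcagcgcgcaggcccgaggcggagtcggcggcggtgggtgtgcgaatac
In Asns the match began 23 bases before the start site and read TGATGAAA, and in Got1 it began 102 bases before and read TTGCATCA, the element on the opposite strand. Pycr1 held the third match among the listed genes, as TGATGCAA beginning 103 bases before its start site. The element was found in the 250 bases before the start site in 3 of 11 promoters of the 9 genes, and in 3.45% of 32851 RefSeq promoters. The E-box CACGTG, the core bound by MYC, was found in 1 of the 11, that of Aldh18a1, and in 6.02% of all promoters. No match of the 2 motifs overlapped another. A match describes the letters and is not a measured site, and no binding was measured, so the part of the element in any difference was not tested.

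Asns encodes asparagine synthetase, which makes asparagine from aspartate and takes the amide nitrogen from glutamine. Its signal was 95.9 in naive cells, 1590 in control effector, 859 in Rap, 6007 in TOFA and 188 in memory cells. All 3 effector arrays were above both resting arrays, and the TOFA array was highest by a wide margin. The other probe set read 67.2, 1615, 652, 5845 and 86.8 in the same order of arrays. TOFA cells were 3.78-fold higher than control and Rap cells 1.85-fold lower, so that TOFA and Rap stood 7.00-fold apart. For Rap against control the other probe set gave -1.31 on the log2 scale, past 2-fold, and the mean of both gave -1.10, where the brightest gave -0.89. The lowest and highest of the 5 arrays, naive and TOFA, were 62.7-fold apart, while the range of Gpt2, at least 28.9-fold, is a bound that cannot be ranked against it.

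Gpt2 encodes the mitochondrial alanine aminotransferase, which converts pyruvate and glutamate into alanine and alpha-ketoglutarate. Its signal was 20.5 in naive cells, 302 in control effector, 82.2 in Rap, 1255 in TOFA and 60.8 in memory cells. The naive value lay under the floor, and the order of the arrays from TOFA down to naive was the same as for Asns. TOFA cells were 4.16-fold higher than control and Rap cells 3.67-fold lower, and these 2 arrays were 15.3-fold apart. All 4 probe sets were higher in TOFA and lower in Rap than in control, with log2 differences of 0.94 to 2.53 and of -1.88 to -0.55. The -0.55 is a bound, because that probe set read 63.5 in control and 7.21, under the floor, in Rap cells. The brightest probe set left when _x_at and _s_at probe sets, which can match several transcripts, were set aside, put both comparisons just under 2-fold, at 0.94 and -0.96. Gpt, the cytosolic alanine aminotransferase, had signals of 464 in control, 341 in Rap and 395 in TOFA cells, all within 2-fold.

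**Figure D1:**
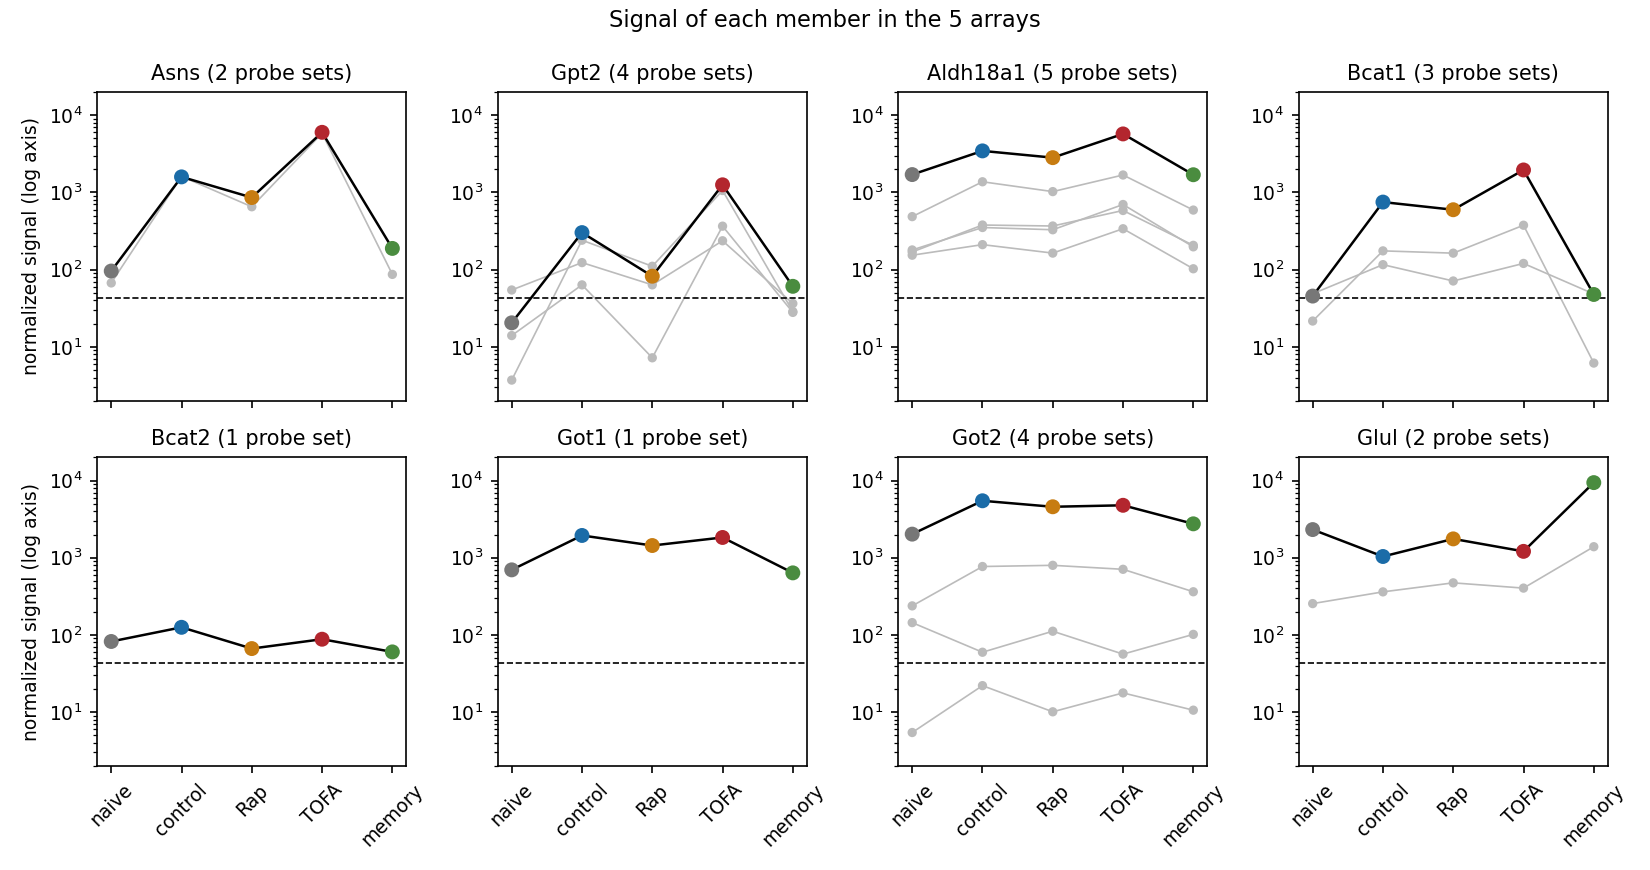
Normalized signal (vertical log axis) of the 8 measured members in the naive, control effector, Rap, TOFA and memory arrays (horizontal axis). Coloured points joined by a black line are the probe set that stood for the gene, grey points and lines are its other probe sets, and the dashed line is the floor at 43.4. Asns, Gpt2, Aldh18a1 and Bcat1 peak in the TOFA array, Bcat2, Got1 and Got2 in the control effector array, and Glul in the memory array.

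Aldh18a1 encodes delta-1-pyrroline-5-carboxylate synthase, which commits glutamate to proline and ornithine synthesis. Its signal was 1704 in naive cells, 3452 in control effector, 2822 in Rap, 5727 in TOFA and 1695 in memory cells. The naive and memory arrays were level, the control and Rap arrays lay above them, and the TOFA array was highest. TOFA cells stood 1.66-fold above control, short of 2-fold, and Rap cells 1.22-fold below it. All 5 probe sets went the same way, with log2 differences of 0.29 to 0.99 for TOFA and of -0.42 to -0.04 for Rap. TOFA and Rap were 2.03-fold apart, which became 1.59-fold to 1.88-fold under the 3 other choices of probe set.

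The aminotransferases of branched-chain amino acids move the amino group of leucine, isoleucine and valine to alpha-ketoglutarate, forming glutamate. The highest signals of these enzymes lay in different arrays. Bcat1, the cytosolic enzyme, had signals of 45.4 in naive, 749.9 in control effector, 597 in Rap, 1954 in TOFA and 47.6 in memory cells. Both resting arrays were just above the floor, and the TOFA array was highest. TOFA cells were 2.61-fold higher than control and 3.27-fold higher than Rap cells, while Rap cells were 1.26-fold below control. The probe sets of Bcat1 disagreed on size for TOFA against control, since the other 2 gave 1.10 and 0.05 on the log2 scale, and the mean of all 3 was 1.80-fold, under the threshold. Bcat2, the mitochondrial enzyme with 1 probe set, had signals of 82.3, 126, 66.6, 88.0 and 60.3 in naive, control effector, Rap, TOFA and memory cells. It was dim throughout and highest in control effector cells, with TOFA 1.43-fold and Rap 1.89-fold lower than control.

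Got1 and Got2 encode the cytosolic and mitochondrial aspartate aminotransferases, which interconvert aspartate and glutamate and carry electrons into mitochondria through the malate-aspartate shuttle. Got1 had signals of 697 in naive, 1944 in control effector, 1440 in Rap, 1831 in TOFA and 637 in memory cells. Got2 had signals of 2023, 5470, 4575, 4780 and 2751 in the same arrays. Both were highest in the control effector array, and no pair of effector arrays was 2-fold apart for either gene. For TOFA against control the log2 difference was -0.09 for Got1 and -0.19 for Got2. The next brightest Got2 probe set read 770 in control, 798 in Rap and 708 in TOFA cells.

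Glul encodes glutamine synthetase, the enzyme that makes glutamine from glutamate and ammonia. Its signal was 2317 in naive cells, 1038 in control effector, 1755 in Rap, 1210 in TOFA and 9404 in memory cells. The memory array was far above the rest, and the effector arrays were lowest. The other probe set read 255, 361, 473, 404 and 1390, so memory was highest on both, while naive was lowest on the second. Among effector arrays, Rap was 1.69-fold above control, with log2 differences of 0.76 and 0.39 on the 2 probe sets. TOFA was 1.17-fold above control. Glul was the only 1 of the 8 measured members with a higher signal in Rap than in control cells on its brightest probe set.

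Control effector cells were set against naive cells to ask how these enzymes stood after Th1 culture. Asns and Bcat1 were 16.6-fold and 16.5-fold higher, Got1 2.79-fold, Got2 2.70-fold and Aldh18a1 2.03-fold. Gpt2 was at least 6.96-fold higher, a bound that has no place in that order, and its log2 difference was 3.88 with the floor at the 20th percentile against 2.80 here. Bcat2 was 1.53-fold higher, short of 2-fold, and Glul was 2.23-fold lower. In all, 6 of 8 members were at least 2-fold higher and 1 lower, where 27.2% of 13062 genes compared passed 2-fold, 15.9% higher and 11.4% lower. The median over the members was 1.46 on the log2 scale, against 0.03 over all genes compared. The sizes for Bcat1 and Gpt2 were those of the brightest probe set, since all probe sets spanned 1.25 to 4.05 and 0.55 to 2.80 on the log2 scale, and those of Asns 4.05 to 4.59. Both ends of the Gpt2 span are bounds, because those probe sets lay under the floor in naive cells. The direction of Glul rests on its probe set, since the other gave 0.50 and the mean of both gave -0.33. Beside the Glul difference, the summed B cell markers were 32520 in naive and 1859 in control effector cells and the summed macrophage markers 1361 and 547, and their part in it was not tested. As a mean over its probe sets Got2 was 1.96-fold higher, just under the threshold.

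TOFA cells were set against control effector cells to ask how cells given the acetyl-CoA carboxylase inhibitor differed. Gpt2, Asns and Bcat1 were 4.16-fold, 3.78-fold and 2.61-fold higher in the TOFA array, and no measured member was 2-fold lower. Of the 12850 genes compared, 0.288% had a difference as high as Gpt2 or higher, 0.35% as high as Asns and 0.911% as high as Bcat1. Thus 3 of 8 members were at least 2-fold apart, where 4.61% of genes compared were, 2.47% higher and 2.14% lower. The members' median was 0.48 on the log2 scale, against 0.01 over all genes. The other 5 lay between -0.51 (Bcat2) and 0.73 (Aldh18a1). With the second brightest probe set of each gene, 1 of the members, Asns, was past 2-fold and the median was 0.11. Macrophage markers summed to 862 in TOFA and 547 in control cells, with 4 of 5 markers compared above 0. Hmox1 (388 and 210) and Mpeg1 (155 and 7.47) rose most, while C1qa and Lyz2 were under the floor in both arrays. B cell markers summed to 2291 and 1859, with Ighm at 1814 and 1352. Of the B cell markers compared, 3 of 6 were above 0, and the median was -0.01 on the log2 scale. The part of either list in the members' differences was not tested.

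The Rap effector array was set against the same control array, so the TOFA and Rap differences share it. Gpt2 was 3.67-fold lower in Rap cells, and 0.475% of genes compared were as low or lower. Bcat2, Asns, Got1, Bcat1, Aldh18a1 and Got2 lay below control by less than 2-fold, from -0.91 to -0.26 on the log2 scale. Glul was at 0.76. Of 8 members, 1 was past 2-fold, where 5.7% of 12839 genes compared were, 1.79% higher and 3.91% lower. The median over the members was -0.38, against 0.00 over all genes to 2 decimals. When _x_at and _s_at probe sets were left out, 0 members were past 2-fold, and as a mean over probe sets 2 were, Asns and Gpt2. Beside these differences, B cell markers summed to 2630 in Rap and 1859 in control cells, with 6 of 6 markers compared above 0 and a median of 0.71 on the log2 scale. Macrophage markers summed to 366 and 547, with 2 of 5 markers compared above 0 and a median of -0.09. Hmox1 (59.9 and 210) differed most, while C1qa and Lyz2 were under the floor in both arrays. Their part in the members' differences was not tested.

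Set directly against each other, the TOFA and Rap arrays differed most at Gpt2 (15.3-fold), Asns (7.00-fold) and Bcat1 (3.27-fold), all higher in TOFA. Gpt2 ranked 5 from the top among 12783 genes compared, and Asns 17. With Aldh18a1 at 2.03-fold, 4 of 8 members had at least 2-fold more signal in TOFA and 0 lower, where 4.59% of genes compared were past 2-fold, 3.25% higher and 1.35% lower. The members' median was 0.71, against 0.02 over all genes. Got2, Got1 and Bcat2 lay at 0.06, 0.35 and 0.40, within 2-fold, and Glul at -0.54. With the second brightest probe sets, 2 members were past 2-fold, Gpt2 and Asns. The B cell markers had a median of -0.75 in this comparison, with summed signals of 2291 in TOFA and 2630 in Rap cells. Macrophage markers summed to 862 and 366, with 5 of 6 markers compared above 0 and a median of 0.28. Hmox1 (388 and 59.9) and Mpeg1 (155 and 25.1) differed most, while C1qa and Lyz2 were under the floor in both arrays. The part of either was not tested.

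**Figure D2:**
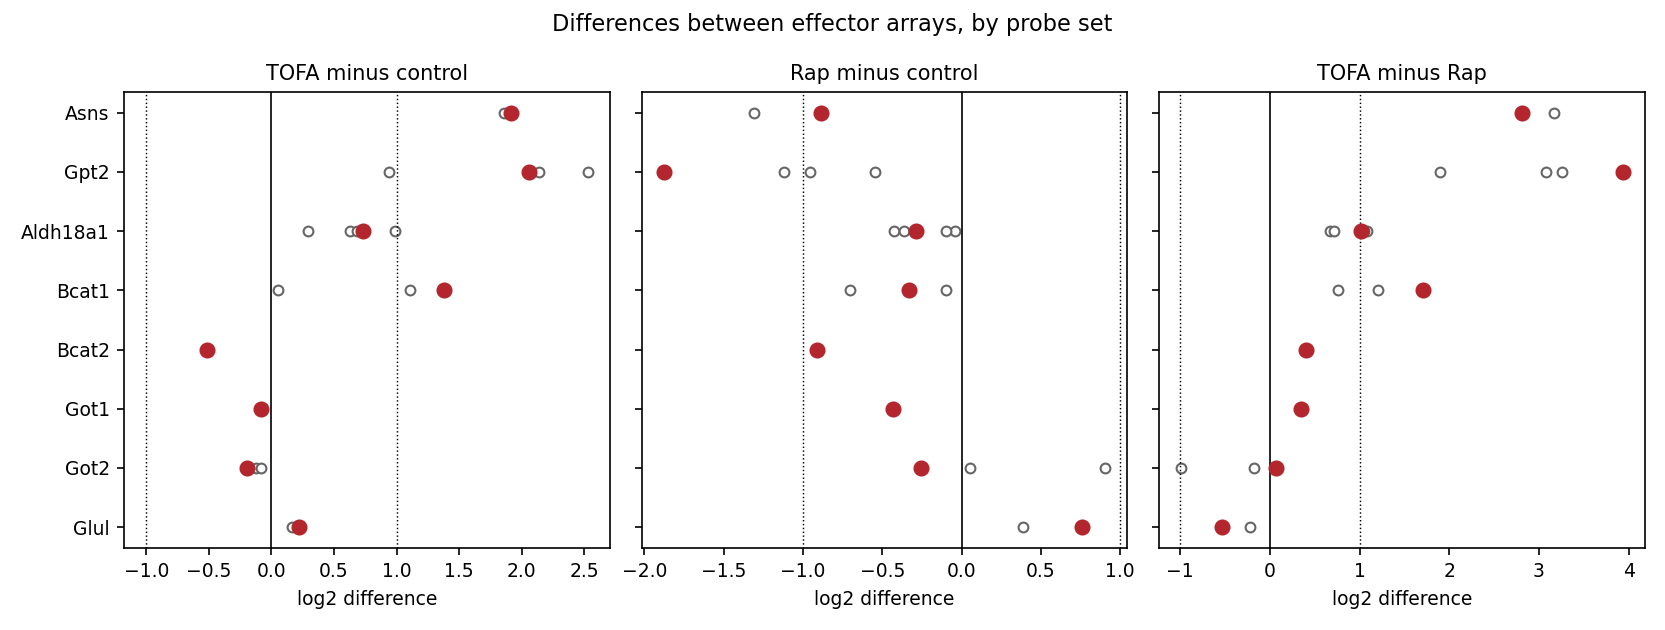
Log2 difference in signal (horizontal axis) of each member for TOFA minus control, Rap minus control and TOFA minus Rap effector arrays. Filled points are the probe set that stood for the gene, open points its other probe sets above the floor in at least 1 of the 2 arrays, and dotted lines mark 2-fold. Asns and Gpt2 lie right of 0 in the first panel and left of it in the second on all of their probe sets, while Got1 and Got2 lie within 2-fold of 0 on all of theirs.

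Memory cells were compared with naive and with control effector cells. Against naive cells, Glul was 4.06-fold higher, and 6 of the others were within 2-fold, from -0.45 (Bcat2) to 0.97 (Asns) on the log2 scale. Gpt2 was at least 1.40-fold higher, a bound that does not place it within 2-fold, and was 2.97-fold higher with the floor at the 20th percentile. This made 1 of 8 members counted past 2-fold, where 16.4% of 13014 genes compared were, 12.3% higher and 4.13% lower, with medians of 0.26 over the members and -0.05 over all genes. In the values as deposited, Asns was also past 2-fold, at 2.40-fold, and the split of all genes turned from 1595 higher and 538 lower to 1999 and 345. Against control effector cells, Glul was 9.06-fold higher. Bcat1 (15.7-fold), Asns (8.45-fold), Gpt2 (4.97-fold), Got1 (3.05-fold), Bcat2 (2.08-fold) and Aldh18a1 (2.04-fold) were lower in memory cells. Got2 was 1.99-fold lower, just short of 2-fold.

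The count for memory against control effector cells was thus 1 of 8 members higher and 6 lower, where 28.3% of 13239 genes compared were past 2-fold, 14.2% higher and 14.1% lower. The members' median was -1.33, against -0.03 over all genes. The probe sets of Bcat1 spanned -3.98 to -1.26 here, and those of Gpt2 -2.47 to -0.55. Both ends of the Gpt2 span are bounds, because those probe sets lay under the floor in memory cells. With the values as deposited the split of all genes was 2510 higher and 1453 lower, the median of all genes was 0.17, Bcat2 was only 1.39-fold lower and Got2 was 2.21-fold lower. Bcat2 was also under 2-fold, at 1.63-fold, with a constant added in place of the floor. Aldh18a1 was 1.83-fold lower without the _x_at and _s_at probe sets. Beside the high Glul signal of the memory array stood the macrophage markers, with Lyz2 at 14766, Csf1r at 6232 and Adgre1 at 7450 there, against 811, 96.3 and 66.6 in naive cells. Macrophages are known to express glutamine synthetase, and the part of these cells in the Glul signal was not tested. B cell markers summed to 49552 in memory, 32520 in naive and 1859 in control effector cells. Dendritic cell markers summed to 45589, 7746 and 2229, and neutrophil markers to 12482, 5520 and 89.4, in the same order. Most of the dendritic cell sum in memory cells came from H2-Aa (23624), H2-Ab1 (10952) and Cd74 (9965). Of the rest of that list, Itgax read 843 in memory and 41.6 in naive cells, and Flt3 37.2 and 62.2. All 4 marker lists stand beside every member's difference for the memory array, where their part was likewise not tested.

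**Figure D3:**
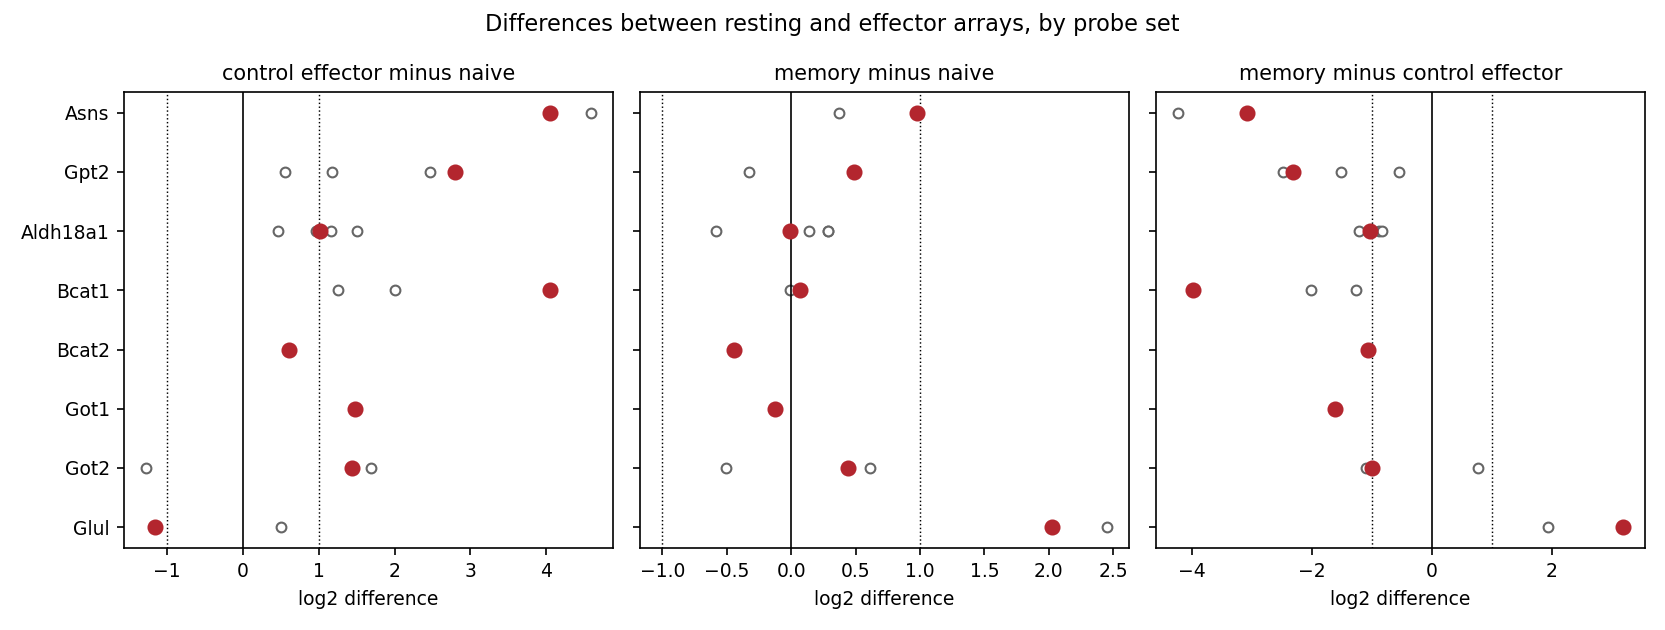
Log2 difference in signal (horizontal axis) of each member for control effector minus naive, memory minus naive and memory minus control effector arrays, drawn as filled points for the probe set that stood for the gene and open points for the others. Dotted lines mark 2-fold. In the middle panel the filled point of Glul lies at 2.02 and the others lie between the dotted lines, that of Gpt2 being a lower bound, and in the left panel the Glul probe sets lie on opposite sides of 0 (-1.16 and 0.50).

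**Figure D4:**
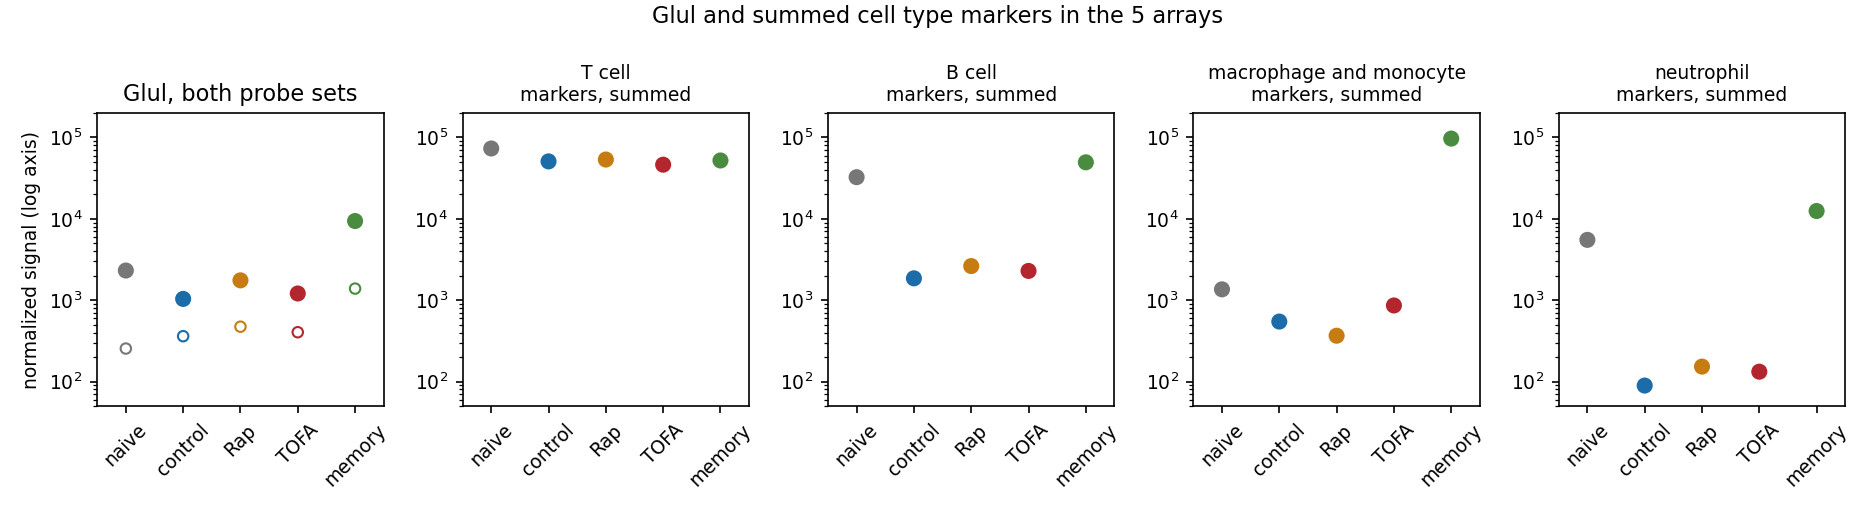
Normalized signal of Glul (filled for the brightest probe set, open for the other) and summed signals of T cell, B cell, macrophage and monocyte, and neutrophil markers in the 5 arrays, on a shared log axis. The macrophage sum is 96935 in the memory array and at most 1361 in the others, the array in which Glul is highest (9404), while the T cell sums lie between 46342 and 73287.

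For each member, the genes whose signals over the 5 arrays were most alike were found by the root mean square difference of log2 signals, after each gene's own mean was subtracted, among 9904 genes (9905 for Bcat2). With 5 arrays the measure describes these arrays only. Signals under the floor were raised to it first, so that likeness between arrays under the floor was set by the floor. For Gpt2 the nearest were Chac1 (0.33), a glutathione-degrading enzyme gene, Cth (0.50), the cystathionine gamma-lyase gene, and Slc7a3 (0.60), a cationic amino acid transporter gene. Chac1 had signals of 173 in control, 37.6 in Rap and 756 in TOFA cells. It was under the floor in the naive, Rap and memory arrays, and Cth was under it in the naive and memory arrays. For Asns they were Bcat1 (0.50), Stc2 (0.59) and Gstt1 (0.61), so that its nearest gene was another member.

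Aldh18a1 lay close to Ndufaf6 (0.09) and to the tRNA synthetase genes Gars (0.10), which charges glycine, and Eprs (0.11), which charges glutamate and proline. Eprs had signals of 3456 in control, 2955 in Rap and 6152 in TOFA cells. Bcat1 was nearest to Gadd45g (0.43), Mir155hg (0.47) and Fam71b (0.48). Glul was nearest to Daglb (0.17), Edaradd (0.18) and Cerk (0.19). Before the floor was applied, Edaradd read 43.6 in control and 6.66 in TOFA cells, where Glul was 1.17-fold higher in TOFA. For the aspartate aminotransferases, Got1 lay beside Copg2 (0.03), Slc19a2 (0.05) and Polk (0.06), and Got2 beside Rps27l (0.04), Stx2 (0.05) and Slirp (0.06). Bcat2 lay beside Atr (0.07), Mex3d (0.08) and Nudt14 (0.08).

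The partners of these enzymes were taken from 8 lists that held 94 genes, of which 88 were on the array. The ATF4 axis list held regulators and also other genes of the axis, such as the enzyme gene Chac1. Of all genes compared, 2.47% were at least 2-fold higher in TOFA than in control cells and 2.14% lower. In this list 8 of 18 genes were higher and 0 lower, with a median of 0.80 on the log2 scale. Nupr1 (17.1-fold), Atf5 (6.69-fold), Trib3 (6.17-fold), Chac1 (4.38-fold), Ddit3 (2.85-fold), Cebpb (2.35-fold) and Sesn2 (2.10-fold) made up this count with Atf4. Atf4 itself had signals of 4247 in naive, 4159 in control effector, 2881 in Rap, 12163 in TOFA and 3557 in memory cells. The TOFA array was 2.92-fold above control, and the other 4 arrays were within 2-fold of one another. In Rap cells 2 of the 18 were at least 2-fold lower, Chac1 (at least 3.98-fold) and Ddit4 (2.40-fold), and the median was -0.13. Myc, the growth transcription factor, had signals of 2385 in naive, 5076 in control effector, 8783 in Rap, 4884 in TOFA and 2329 in memory cells. Myc was thus highest in the Rap array, and the part of Myc or of the ATF4 axis in the members' differences was not tested.

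The list of glutamine, neutral and branched-chain amino acid carriers had 5 of 10 genes at least 2-fold higher in TOFA than in control cells. Its median was 1.01. The list also held Slc7a3, a cationic amino acid transporter gene, and Slc7a11, a cystine transporter gene, which are among those 5. Slc7a5 and Slc3a2, which together form the leucine transporter LAT1, were 4.30-fold and 3.41-fold higher. Slc7a3 was 6.51-fold, Slc1a4 4.92-fold and Slc7a11 2.65-fold higher. These counts, like those for TOFA in the lists that follow, stand beside the same 2.47% and 2.14% of all genes, and those for Rap beside 1.79% higher and 3.91% lower. In Rap against control, 0 of 10 carriers were past 2-fold and the median was -0.20. Of 9 genes of serine, glycine and one-carbon synthesis, 3 passed 2-fold upward in TOFA cells, namely Aldh1l2 (9.01-fold), Shmt2 (2.06-fold) and Psph (2.04-fold), with a median of 0.62. Psat1, the serine pathway aminotransferase that uses glutamate, had signals of 761 in naive, 5828 in control effector, 4368 in Rap, 8927 in TOFA and 499.7 in memory cells. Its 1.53-fold difference for TOFA fell short of the threshold.

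Other lists held genes that use up glutamine, glutamate or branched-chain amino acids. Of the glutamine and glutamate use list, 0 of 8 genes compared were past 2-fold in TOFA and 0 of 9 in Rap, with medians of 0.13 and 0.19. Glud1, glutamate dehydrogenase, had signals of 4647 in naive, 4794 in control effector, 4858 in Rap, 3992 in TOFA and 5625 in memory cells, all within 2-fold. In branched-chain amino acid breakdown, 0 of 13 genes were past 2-fold in TOFA and 1 was lower in Rap, Ivd, the isovaleryl-CoA dehydrogenase gene (2.02-fold). Among malate-aspartate shuttle and citrate cycle partners, 0 of 9 were past 2-fold in TOFA and 1 was lower in Rap, the isocitrate dehydrogenase gene Idh1 (4.08-fold).

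The proline, ornithine and arginine list, without Aldh18a1, had 1 of 6 genes compared past 2-fold in TOFA, Aldh4a1 (at least 2.39-fold lower), which breaks down the proline intermediate, and 0 of 6 in Rap. Pycrl, a paralog of Pycr1 that also makes proline, had signals of 241 in naive, 357 in control effector, 392 in Rap, 386 in TOFA and 268 in memory cells, all within 2-fold. The asparagine, aspartate and alanine list had 1 of 6 genes lower in each treated array, Adssl1 both times (2.33-fold in TOFA and at least 2.87-fold in Rap). Against naive cells, the control effector array had 5 of 9 serine and one-carbon genes and 9 of 18 ATF4 axis genes at least 2-fold higher. It had 3 of 10 carriers and 2 of 9 glutamine and glutamate users higher, where 15.9% of all genes compared were. For the other lists the counts were 1 of 7 for proline, ornithine and arginine and 2 of 7 for asparagine, aspartate and alanine. They were 2 of 13 for branched-chain amino acid breakdown and 2 of 9 for malate-aspartate shuttle and citrate cycle partners. With so few genes in a list, no count of 3 or fewer is read as above that share.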

How the data were processed

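Total RNA from 5 samples was measured on Affymetrix mouse arrays. Per the submitters' processing notes, the authors used GCOS and Affymetrix Expression Console, with neither versions nor the algorithm stated. The deposited values are linear intensity per probe set, scaled to a trimmed mean of 500.003 on every array. Control probe sets (64) were dropped. Of the other 45037, the 2016 platform annotation gave 34945 a single gene symbol, 932 several and 9160 none. The Entrez ID matched RefSeq for 34741, with 0 symbols changed. The medians of the arrays spanned 0.66 (log2), over the limit of 0.5, so they were quantile normalized (Python 3.11.15, numpy 2.4.6, pandas 2.3.3). Each gene was read from its brightest probe set by mean log2 signal. A gene at the floor in both arrays was left out of that comparison, and one at the floor in 1 has a bound, written "at least". The procedure was tested on simulated data. All members were named, with the 3 nearest genes each among genes reaching the 60th percentile, and list partners past 2-fold in TOFA or Rap, with Myc, Atf4, Glud1 and Psat1. Pycrl and Gpt, paralogs of members, were named after their values were seen. Members and lists were chosen with earlier results of these data known. Alternatives were deposited values, other floors, an added constant and other probe set choices. Promoters are from RefSeq, GRCm38.p6.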

Additional observations from a re-analysis of the deposited data

How the results depend on the processing

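The members' differences, counts and medians were recomputed under 7 alternatives, and those of partner lists, nearest genes, markers and promoters were not. Of 48 member differences, 8 had no value under at least 1 alternative. Of 326 recomputed values, 303 stayed on their side of the 2-fold threshold, 16 dropped under it and 6 passed it. The 1 called difference that turned direction was that of Glul for control effector against naive, at 0.50 on the log2 scale with the second brightest probe set. Among the 303, 9 values of 5 differences under 2-fold changed sign, under other probe set choices. They were Gpt2 (0.49 to -0.33), Aldh18a1 (-0.01 to 0.29) and Bcat1 (0.07 to -0.01) for memory against naive, and Got2 for Rap against control (-0.26 to 0.05) and for TOFA against Rap (0.06 to -0.17). With the second brightest probe set, the members past 2-fold numbered 1 for TOFA against control (median 0.11) and 2 for TOFA against Rap. For Rap against control they numbered 2 as a mean of all probe sets and 0 without _x_at and _s_at probe sets. For memory against naive they numbered 2 with the values as deposited, and 2 with the floor at the 20th percentile. The median for TOFA against Rap was 1.02 with the floor at the 60th percentile, under which fewer members were compared. Asns stayed past 2-fold for TOFA against control and against Rap under all 7 alternatives, with ranges of 1.86 to 2.01 and of 2.75 to 3.16 on the log2 scale. Signals near the floor limit Bcat2 and the resting values of Gpt2 and Bcat1. No paired analysis was possible because each group had 1 array.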

Other observations

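Got2 had a dim probe set that ran against the rest of the gene. It read 144 in naive and 102 in memory cells, against 59.7 in control effector, 112 in Rap and 56.4 in TOFA cells, so that it was lowest in the control and TOFA arrays and its log2 difference for control effector against naive was -1.27. The brightest probe set gave 1.44 for that comparison and the next brightest gave 1.69. The fourth probe set of Got2 was under the floor in all 5 arrays.

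Idh1 makes cytosolic NADPH and alpha-ketoglutarate. Its signals were 225 in naive, 1361 in control effector, 333 in Rap, 1019 in TOFA and 4747 in memory cells. Like Glul, it was highest in the memory array, where the macrophage, B cell and neutrophil marker sums were also highest. The part of those cells in the Idh1 signal was not tested.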
